A study of Mus musculus with 30 samples.

Results

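The respiratory chain is built from 2 genomes. Followed here were 99 protein-coding genes taken as its members, 13 encoded in mitochondrial DNA and 86 encoded in the nucleus, of 36047 genes measured. The members were taken by symbol. The mitochondrial set holds every protein-coding gene whose symbol starts with mt-. The nuclear set was grouped by symbol into complex I (38 genes, Ndufa, Ndufb, Ndufc, Ndufs and Ndufv), complex II (4 genes, Sdha to Sdhd), complex III (8 genes, Uqcr), complex IV (18 genes, Cox4 to Cox8) and the ATP synthase, complex V (18 genes, Atp5). The grouping rests on the symbol alone, so a member need not be a subunit of that complex. Atp5s, for example, carries the symbol Dmac2l in RefSeq, and a second Atp5o entry had no counts. The nuclear members lie on 19 chromosomes.

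Complexes I to IV pass electrons from NADH and succinate to oxygen and complexes I, III and IV also pump protons out of the mitochondrial matrix, and the ATP synthase uses the returning protons to make ATP. Mitochondrial DNA encodes core subunits of complexes I, III, IV and V and is transcribed inside the organelle by its own polymerase into long precursors, which are then cut. The nuclear subunits are transcribed one gene at a time in the nucleus, translated in the cytosol and imported, and factors such as NRF1, the ETS protein GABP and YY1 are known to bind the promoters of many of them. Complex II has nuclear subunits only.

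The cells were NIH3T3-CG, a derivative of the mouse embryonic fibroblast line NIH3T3 whose suffix the labels do not explain. Total RNA of whole cultures was used for mRNA sequencing, in 10 groups of 3 libraries. Cells transfected with a Prrx1 plasmid and cells transfected with a Snai1 plasmid share one set of control plasmid libraries, cells transfected with Egr1 or Jun plasmids share another, and cells transfected with a Srebf2 plasmid have their own. In a further experiment, cells transduced to carry Prrx1 were kept with doxycycline or without it, so that the control cells of that comparison carry the construct too. No group had doxycycline without the construct, so changes from the drug and from Prrx1 cannot be told apart there. Prrx1 is a homeobox factor of mesenchymal cells, Snai1 a zinc finger repressor of epithelial genes, Egr1 and Jun are immediate early factors, and Srebf2 activates cholesterol synthesis genes. Whether the 3 libraries of a group come from separate cultures is not stated, so p-values measure the spread between libraries, which may be technical. A lower value in such bulk RNA can come from fewer cells expressing a gene or from less RNA per cell, and these cannot be told apart.

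Libraries held 7946823 to 36719040 estimated counts in genes. Each delivered factor was higher in its own group, from a log2 fold change of 1.95 for Prrx1 with doxycycline to 6.94 for Snai1. The fibroblast markers summed to 16449 to 28715 CPM (read counts scaled to library size) in every library, whereas the muscle, adipocyte and immune markers summed to at most 29.1 CPM, and the epithelial markers reached 169 CPM in 1 Egr1 library.

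Promoter sequences show which known binding letters the nuclear members carry. RefSeq promoters (GRCm38.p6, 250 bases before to 50 after the gene start) were matched for 69 of the 86 nuclear members. The NRF1 motif, shown in capitals in the promoter of Atp5k below and the same on both strands, was in 5 of the 69 (7.25%). Of all 27025 genes with a promoter listed, 1.07% held it in any of their promoters. The YY1 motif AAGATGGC, searched on both strands as all the others were, was in 10 of the 69 (14.5%) and in 3.19% of all. The ETS motif CCGGAAGT was in 5 (7.25%) against 4.31%. Letters known to be bound by the delivered factors other than Prrx1 were also searched, and none were searched for Prrx1. Found were the Egr1 motif GCGGGGGCG in 1 of 69 against 3.31%, the sterol element TCACNCCAC in 0 against 1.44%, the Snai1 E-box CAGGTG in 20.3% against 22.6%, and the AP-1 motif TGANTCA of Jun in 10.1% against 8.97%. No motif contains another. A match is a description of letters, not a shown binding site.

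Of the members described below, 3 promoters are printed, chosen after the values were seen as 1 example of each respiratory chain motif among genes called in more than 1 of the tests below. Capitals mark the motif: NRF1 in Atp5k (chr5:108434350-108434649, minus strand), YY1 in Ndufs6 (chr13:73328433-73328732, minus strand) and ETS in Uqcr11 (chr10:80406772-80407071, minus strand).
Atp5k: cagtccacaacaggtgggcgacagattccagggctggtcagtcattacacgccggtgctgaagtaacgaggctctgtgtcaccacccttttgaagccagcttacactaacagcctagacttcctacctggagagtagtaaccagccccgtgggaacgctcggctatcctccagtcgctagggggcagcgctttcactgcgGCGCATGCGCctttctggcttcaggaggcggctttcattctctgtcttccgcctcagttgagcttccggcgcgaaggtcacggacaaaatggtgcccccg
Ndufs6: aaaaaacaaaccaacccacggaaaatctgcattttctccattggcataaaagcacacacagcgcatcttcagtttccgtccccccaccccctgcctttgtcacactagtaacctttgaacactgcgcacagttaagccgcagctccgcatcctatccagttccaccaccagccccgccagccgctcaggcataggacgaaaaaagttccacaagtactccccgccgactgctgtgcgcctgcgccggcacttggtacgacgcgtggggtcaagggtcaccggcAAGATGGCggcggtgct
Uqcr11: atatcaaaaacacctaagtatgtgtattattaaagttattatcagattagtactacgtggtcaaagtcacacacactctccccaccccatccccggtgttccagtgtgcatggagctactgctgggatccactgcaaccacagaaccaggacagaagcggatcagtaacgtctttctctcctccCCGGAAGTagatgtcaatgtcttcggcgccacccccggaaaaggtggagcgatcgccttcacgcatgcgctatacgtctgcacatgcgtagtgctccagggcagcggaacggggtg

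Of the 13 mitochondrial members, 7 have near-identical copies in the nuclear genome, which touches the values given for them and for the set. A block of pseudogenes at chr1:24611535-24616197, minus strand, holds copies of mt-Co1, mt-Co2, mt-Atp6, mt-Co3, mt-Nd3, mt-Nd4l and mt-Nd4, and a read from a shared stretch can be assigned to either. The copies of mt-Co2 (681 aligned bases), mt-Atp6 (678), mt-Co3 (783) and mt-Nd4 (876) have 0 mismatches. The copy of mt-Nd3 differs at 1 of 345 bases, T3C counted from the first base of the mitochondrial gene. The copy of mt-Co1 covers 492 of its bases and differs at 6 of them, T1056A, C1057T, A1059G, A1060G, C1062A and A1066T. The windows that tell these 2 pairs apart are printed from the mitochondrial gene and from its copy, with the differing bases in capitals.
mt-Co1, bases 1054 to 1100: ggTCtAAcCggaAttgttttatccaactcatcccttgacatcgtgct
its copy Gm29216: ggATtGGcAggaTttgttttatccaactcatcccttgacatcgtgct
mt-Nd3, bases 1 to 43: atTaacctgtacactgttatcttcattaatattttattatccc
its copy Gm28438: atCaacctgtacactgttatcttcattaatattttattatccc

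As a measure of this, the share of each gene's 31-base words found in no other gene was computed, and a member under 90% is treated as uncertain. Only mt-Nd1 (100%), mt-Cytb (93.4%), mt-Nd6 (92.6%) and mt-Atp8 (92.5%) pass among the 13 mitochondrial members, against 55 of 86 nuclear members. In mitochondrial DNA mt-Atp8 also overlaps mt-Atp6, mt-Nd4l overlaps mt-Nd4, and mt-Nd5 (chrM:11742-13565, plus strand, GRCm38) overlaps mt-Nd6 (chrM:13552-14070, minus strand). Counting by strand is not stated, so reads from the stretch shared by mt-Nd5 and mt-Nd6 cannot be told apart.

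Per length, the mitochondrial members stood far above most nuclear ones. In TPM, which corrects for length and library size, averaged over the 30 libraries, they ran from 1261 for mt-Nd5 to 7063 for mt-Co1, the catalytic subunit of complex IV. mt-Co3 stood at 5763 TPM, mt-Atp8 at 4743, mt-Co2 at 4723, mt-Atp6 at 4545, mt-Nd1 at 4116 and mt-Nd4l at 3717. mt-Cytb, the cytochrome b of complex III, stood at 2219 TPM. The TPM of mt-Atp8 rests on an effective length of only 44.9 bases, the length left after the fragment length is taken off. The nuclear members had a median of 163 TPM. In the groups made by symbol, the highest members were Ndufa4 at 698 TPM, Sdhc, a membrane anchor of complex II, at 136, and Uqcrh, the hinge protein of complex III, at 620. Cox8a was highest in its group at 1045 TPM and Atp5b, the catalytic beta subunit of the ATP synthase, at 2010.

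Among the subunits that come in tissue forms, the ubiquitous form dominated in every group. Cox4i1 had group means of 371 to 1016 TPM, and Cox4i2, its form of lung and low oxygen, stayed at or below 0.42. Cox6a1 stood at 66.5 to 1270 TPM and its muscle form Cox6a2 at 0.21 to 0.92. Cox6b1 stood at 211 to 633 TPM and its testis form Cox6b2 at 0.54 or less. The muscle form Cox7a1 stood at 0.76 to 2.75 TPM beside Cox7a2 at 53.3 to 262. Cox8a stood at 177 to 1465 TPM, Cox8b, the muscle form, at 1.53 or less, and Cox8c was at 0 in each group. Ndufa4 stood at 74.1 to 991 TPM and Ndufa4l2, a gene known to respond to low oxygen, at 1.37 or less. The 3 genes for the c-ring of the ATP synthase were in the order Atp5g3 (136 to 807 TPM), Atp5g1 (69.6 to 554) and Atp5g2 (29.8 to 98.8) in each group. The place of Atp5g2 is uncertain, since only 62.5% of its sequence is unique. The pseudogene Gm10175, which shares 100% of its 31-base words with Atp5g2, took a mean of 2419 counts against 544 for Atp5g2. In all, 7 nuclear members had a mean under 1 TPM.

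Levels also differed between experiments, which were not tested against each other. In the transduction experiment Ndufa4 had group means of 74.1 and 108 TPM, against 650 to 991 in the transfection groups. Cox6a1 had 66.5 and 87.9 TPM there against 754 to 1270. Cox7a2l, the supercomplex factor, did not follow, at 215 and 186 TPM against 179 to 201. Ndufa4 and Cox6a1 have mean effective lengths of 351 and 335 bases and Cox7a2l one of 802. Delivery, experiment and library preparation cannot be told apart here.

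**Figure D1:**
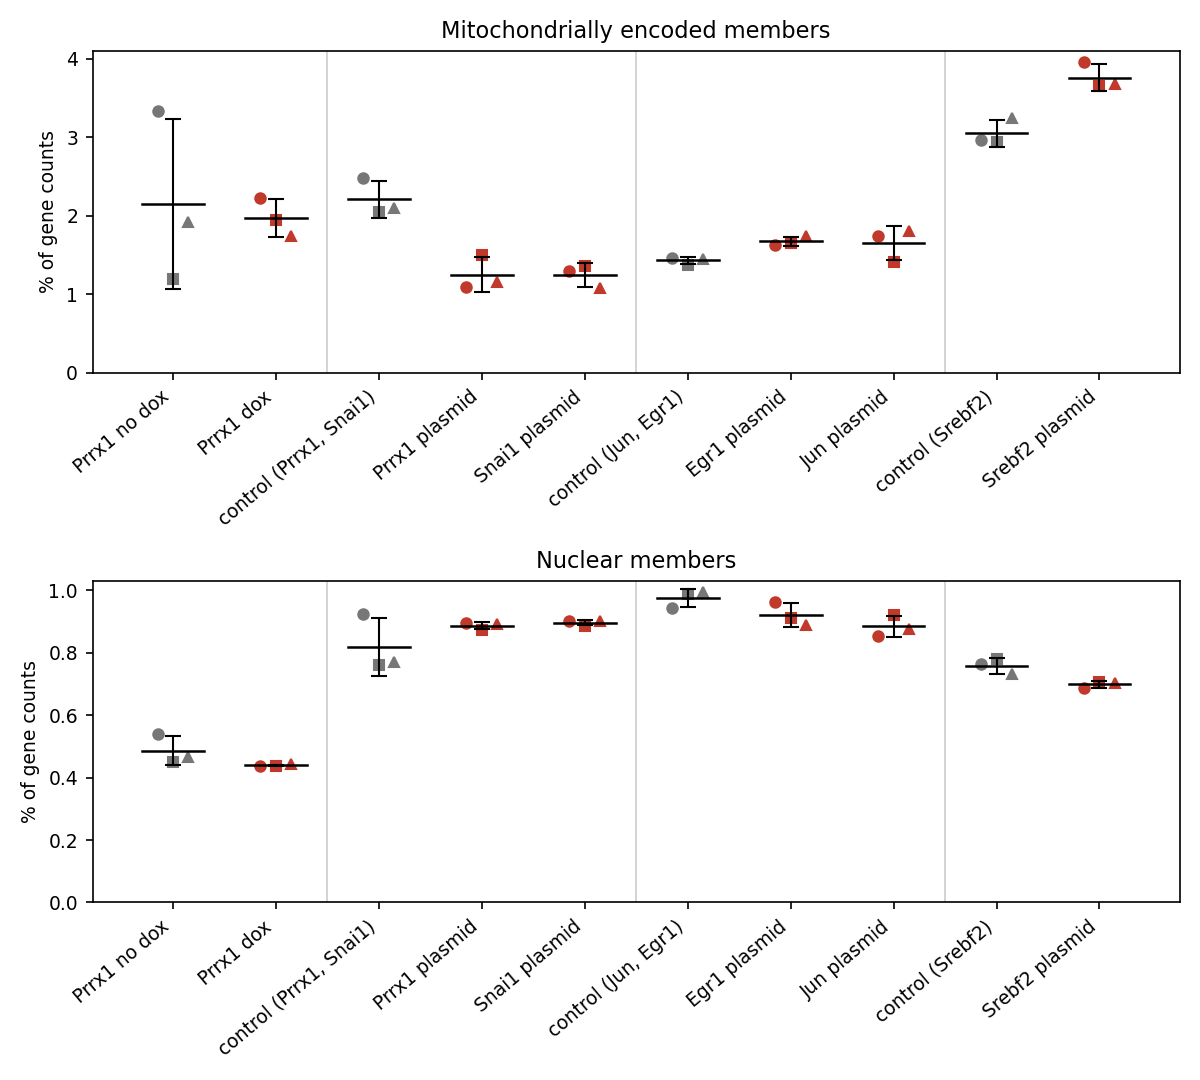
Share of each library's gene counts (percent) in the mitochondrial set and in the nuclear set, for the 10 groups; each point is 1 library, with group means and SD (n = 3). The mitochondrial share ranged from 1.07% to 3.96% and the nuclear share from 0.44% to 0.99%, and library 2 without doxycycline (1.198%) lies far below library 1 of its group (3.34%).

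The sets were compared first as wholes, by the log2 ratio of mitochondrial to nuclear counts within each library. A ratio within a library does not depend on how libraries are scaled to each other. It was 0.28, 0.78 and 0.38 with Prrx1 and 0.52, 0.62 and 0.25 with Snai1, against 1.42, 1.43 and 1.45 in their shared controls. All 6 treated libraries lay below all 3 controls, and the group means differed by -0.95 and -0.97. With Srebf2 the ratio was 2.53, 2.37 and 2.39 against 1.95, 1.92 and 2.15, higher in each treated library, with a difference of 0.42. With Egr1 it was 0.76, 0.85 and 0.97 and with Jun 1.03, 0.61 and 1.05, against 0.64, 0.48 and 0.54 in their shared controls. The Egr1 libraries lay above the controls (difference 0.31), and 1 Jun library lay within them (difference 0.34). With doxycycline it was 2.34, 2.15 and 1.97 against 2.63, 1.41 and 2.04, so that these groups overlapped (difference 0.13). No test was made of these scores over the members.

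**Figure D2:**
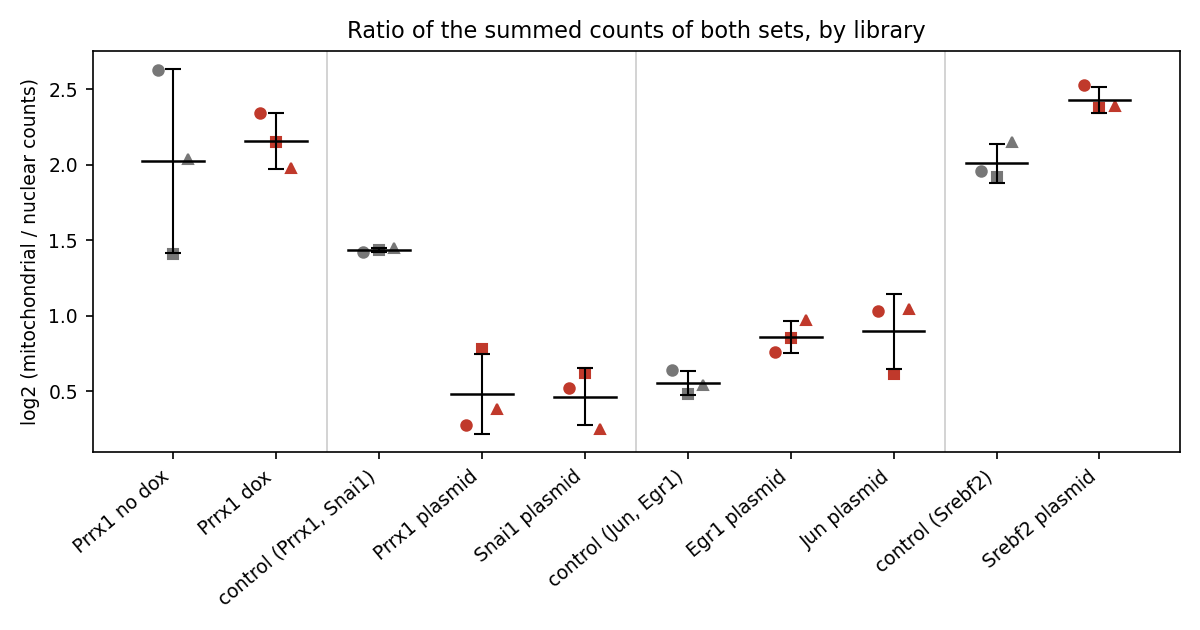
Log2 of mitochondrial over nuclear counts in each library (points), with group means and SD (n = 3), in each experiment. Prrx1 and Snai1 libraries (0.25 to 0.78) lie below their controls (1.42 to 1.45), Srebf2 libraries (2.37 to 2.53) lie above theirs (1.92 to 2.15), and the doxycycline groups overlap.

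In the Prrx1 transfection, mitochondrial transcripts fell. By edgeR's quasi-likelihood test (adjusted p under 0.05 over all tested genes), 11 of the 13 were lower and none higher, where 2.98% of all genes tested were called and 1.05% were called lower. Their median log2 fold change was -0.86, beside 0.00 for all tested genes. mt-Nd1, a membrane core subunit of complex I, stood at 1308, 1638 and 1453 CPM with Prrx1 against 3141, 2509 and 2596 in controls. The treated libraries were all below the controls, a change of -0.91 ± 0.11 (log2, SE; adjusted p = 0.00107), or 1.87-fold lower. mt-Cytb stood at 883, 1224 and 984 CPM against 2089, 1686 and 1644, again without overlap (-0.81 ± 0.13, adjusted p = 0.01).

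Snai1, tested against the same control libraries, gave lower calls for 12 of the 13, where 1.62% of all genes were called and 0.488% were called lower. The median was again -0.86, beside 0.00 for all genes. mt-Nd1 stood at 1563, 1616 and 1306 CPM with Snai1 (-0.88 ± 0.11, adjusted p = 0.00141) and mt-Cytb at 1063, 1136 and 896 (-0.81 ± 0.13, adjusted p = 0.0145). All of these libraries were below the controls given above. mt-Nd6, the complex I subunit read from the other strand, stood at 132, 185 and 148 CPM with Prrx1, 162, 175 and 137 with Snai1 and 375, 268 and 283 in controls. Its changes were -0.997 ± 0.15 and -0.97 ± 0.15 (adjusted p = 0.00909 and 0.0146).

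The other complex I members moved by similar amounts. The log2 fold changes with Prrx1 were -0.89 for mt-Nd2, -0.86 for mt-Nd3, -0.85 for mt-Nd4, -0.78 for mt-Nd4l and -0.89 for mt-Nd5, all called. With Snai1 they were -0.86, -1.05, -0.81, -0.76 and -0.86, also all called. In complexes IV and V, mt-Co2, which carries the copper site that takes electrons from cytochrome c, changed by -0.98 and -0.97, mt-Co3 by -0.82 and -0.80 and mt-Atp6, the proton channel subunit, by -0.93 and -0.88, each called in both. mt-Co1 was not called in either (-0.69 ± 0.17 and -0.72 ± 0.17, adjusted p = 0.0733 and 0.0813), although its 3027 to 4924 CPM in treated libraries lay below 5862 to 6528 in controls.

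mt-Atp8 was the other exception. It stood at 35.4, 43.7 and 35.2 CPM with Prrx1 against 50.6, 43.3 and 42.7, which overlap (-0.26 ± 0.12, adjusted p = 0.282), and at 31.1, 36.1 and 26.9 with Snai1, which do not (-0.54 ± 0.12, adjusted p = 0.0374). Adding to each set the counts of its near-identical copies left the treated ratios (0.38 to 0.88) below the controls (1.497 to 1.53). For mt-Co2 the copy took 37.0% of the counts of the pair with Prrx1 and 38.5% with Snai1 against 21.4% in controls, and the summed pair stood at 1640, 2319 and 1841 CPM with Prrx1 and at 2023, 2176 and 1726 with Snai1 against 3473, 2829 and 2797. The direct contrast of Snai1 with Prrx1 called 0 of 13 mitochondrial and 0 of 77 nuclear members in edgeR, where 0.252% of all genes were called. DESeq2 also called 0, and at an unadjusted p under 0.05 the only member was mt-Atp8, which was lower with Snai1 (log2 difference -0.28).

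**Figure D3:**
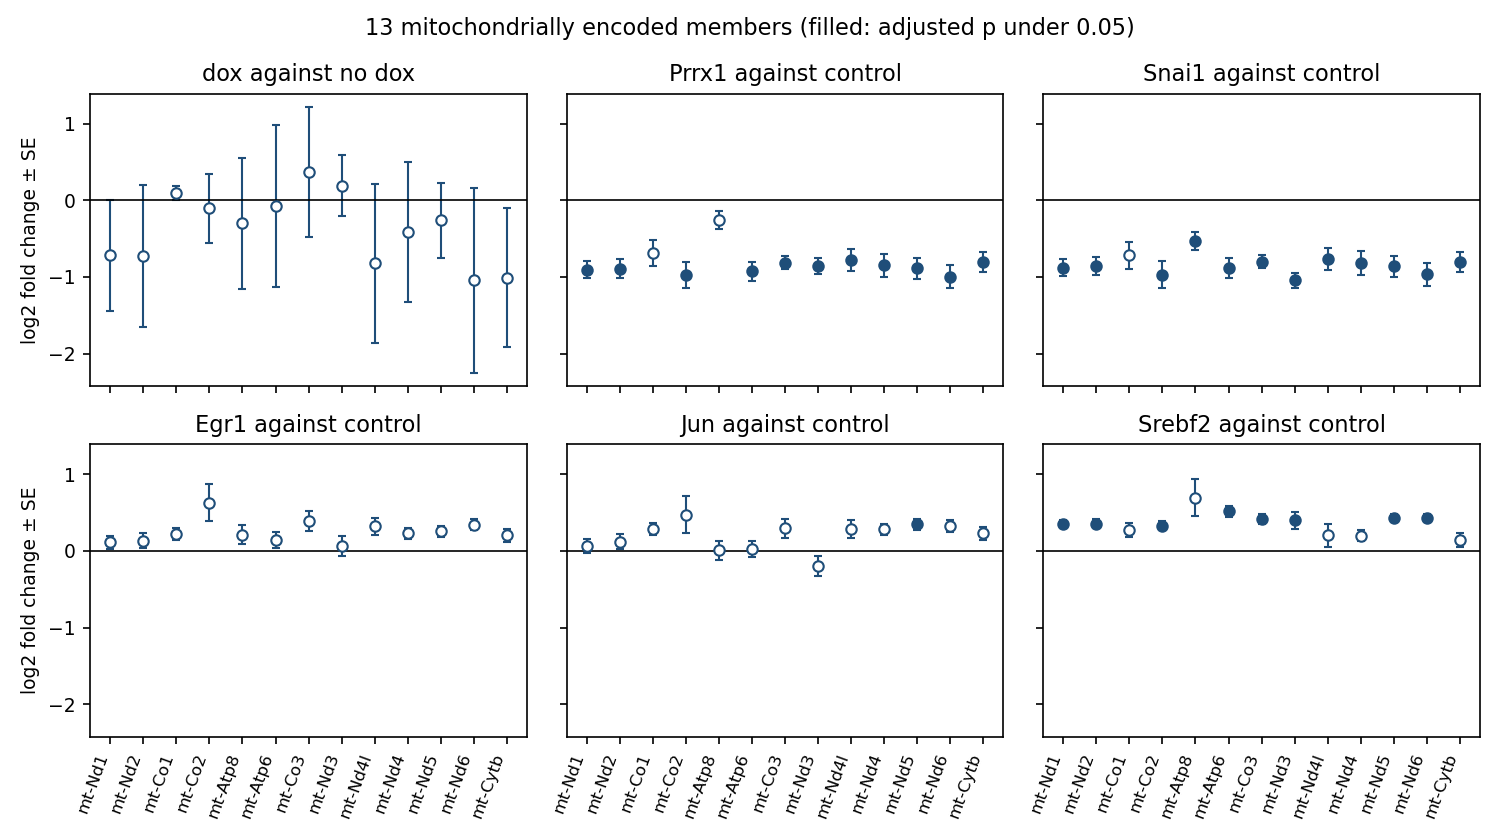
Log2 fold change of each of the 13 mitochondrially encoded members in the 6 treated against control comparisons, with standard errors; filled points passed the test. All 13 lie below 0 with Prrx1 and Snai1 and above 0 with Srebf2 and Egr1, and with doxycycline the error bars are wider than in the other comparisons except for mt-Co1.

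Single libraries decided how many of these calls were made. With Prrx1, 6 mitochondrial members were called without Prrx1 library 3 and up to 12 without another library. With Snai1, 6 were called without Snai1 library 1 or 3, 7 without control library 2, and up to 13 otherwise. Without a filter on low counts 6 were called in each comparison, and in a fit of all 30 libraries 2. For counts with a library left out or in another fit, here and below, the share of all genes is not given. Such counts cannot be set against a background. The members called with each library left out were mt-Nd1, mt-Nd2, mt-Nd3, mt-Co3 and mt-Atp6 in both comparisons, and mt-Nd5 with Prrx1. The difference of the log2 ratios ranged from -1.10 to -0.85 with Prrx1 and from -1.05 to -0.86 with Snai1 when a library was left out.

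Among nuclear members, some rose in the same libraries. With Prrx1, 13 of 77 tested were called higher and 2 lower, where 1.93% of all genes were called higher. Their median was 0.12, beside 0.00 for all genes. With Snai1, 12 were called higher and 0 lower, where 1.13% were called higher, with a median of 0.15. Most were subunits of complex I, with 10 of the 13 and 9 of the 12, where complex I held 37 of the 77 tested. Of these, Ndufa12, Ndufa13, Ndufa5, Ndufs6, Ndufs5, Ndufa8, Ndufb6, Ndufs7 and Ndufb2 were called in both comparisons, as were Cox5b and Cox4i1 of complex IV. Ndufa1 and Uqcr11 were called with Prrx1, and Cox6a1 with Snai1.

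Ndufa12, an accessory subunit of the peripheral arm of complex I, stood at 42.1, 43.5 and 51.3 CPM with Prrx1, 42.6, 39.1 and 41.6 with Snai1, and 30.3, 25.0 and 27.2 in controls. No treated library reached down to the controls, and the changes were 0.73 ± 0.09 and 0.58 ± 0.09 (adjusted p = 0.00148 and 0.00956). Ndufa13, also known as GRIM-19, stood at 61.0, 62.6 and 56.3 CPM with Prrx1 and 60.9, 56.9 and 58.6 with Snai1, against 46.0, 35.8 and 35.0. Control library 1 was nearest the treated ones, and the changes were 0.62 ± 0.10 and 0.60 ± 0.10 (adjusted p = 0.0045 and 0.00947).

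Cox5b, a zinc-binding subunit of complex IV, showed the same spacing, at 157, 152 and 145 CPM with Prrx1 and 160, 146 and 155 with Snai1 against 122, 84.3 and 88.0 (0.63 ± 0.11 and 0.65 ± 0.11). Ndufs6, whose promoter holds the YY1 motif printed above, stood at 30.03, 30.01 and 30.6 CPM with Prrx1 and 29.1, 31.9 and 29.3 with Snai1 against 23.6, 14.8 and 14.8 (0.77 ± 0.15 and 0.76 ± 0.15). In both genes the first control library lay between the treated libraries and the other 2 controls. Ndufa5, of the peripheral arm, stood at 69.3, 65.4 and 66.1 CPM with Prrx1 against 56.4, 45.3 and 45.9 (0.44 ± 0.08), and Ndufs5 at 19.5, 17.4 and 19.6 against 14.2, 11.1 and 9.67 (0.69 ± 0.14).

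Ndufs7, an iron-sulfur core subunit that passes electrons to ubiquinone, stood at 55.5, 57.6 and 61.3 CPM with Snai1 against 47.6, 41.1 and 39.2 (0.45 ± 0.08). Ndufb6, of the membrane arm, stood at 41.1, 42.2 and 43.8 CPM with Snai1 against 34.9, 28.1 and 26.2 (0.51 ± 0.10). Neither pair of groups overlapped. Unique sequence was below the limit for Ndufa12 (79.3%), Ndufa13 (66.8%), Cox5b (83.9%), Ndufs6 (84.9%), Ndufs5 (73.5%) and Ndufb6 (65.6%). The same holds for Cox4i1 (87.6%), Uqcr11 (87.9%) and Cox6a1 (81.5%), and for Atp5l (87.2%), described next. Part of the counts of all these genes may be shared with copies. The 2 members lower with Prrx1 were Atp5l, subunit g of the ATP synthase, at 64.3, 75.2 and 71.7 CPM against 94.1, 84.5 and 85.8 (-0.32 ± 0.08, adjusted p = 0.041), and Ndufab1, the mitochondrial acyl carrier protein, at 62.7, 57.6 and 61.0 against 82.4, 77.9 and 67.1 (-0.33 ± 0.08, adjusted p = 0.0445). On the scale of log2(TPM + 1) Ndufab1 did not keep its sign (0.03).

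The number of nuclear calls changed with single libraries, both treated and control. The nuclear share was 0.924% in control library 1 against 0.759% and 0.769% in the other 2 controls, and 0.873 to 0.901% in the 6 treated libraries. Without control library 1, 53 nuclear members were called with Prrx1 (51 higher and 2 lower) and 55 with Snai1 (52 higher and 3 lower). The share of all genes called without that library is not given, so a wider change cannot be told from one of the members. Leaving out a Prrx1 library gave 2, 4 and 2 calls with Prrx1, leaving out control library 2 or 3 gave 5 and 3, and leaving out a Snai1 library gave 7, 6 and 6. With Snai1, 0, 3 and 0 were called without Snai1 library 1, 2 and 3, 3 and 0 without control library 2 and 3, and 5, 7 and 7 without a Prrx1 library. Ndufa12 and Ndufa13 with Prrx1 were the only nuclear members called with each library left out, and none were with Snai1.

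With Srebf2 the directions were the other way round. Of the mitochondrial members 8 rose and none fell, where 17.2% of all genes were called and 8.4% were called higher, and their median was 0.36 beside 0.00 for all genes. mt-Nd1 stood at 3235, 3409 and 3295 CPM with Srebf2 against 2632, 2514 and 2651, without overlap (0.35 ± 0.05, adjusted p = 0.000461). mt-Nd6 stood at 493, 494 and 484 CPM against 341, 384 and 365 (0.43 ± 0.05, adjusted p = 7.11e-05). mt-Nd5, a proton-pumping subunit of complex I, stood at 2312, 2305 and 2259 CPM against 1651, 1652 and 1790 (0.43 ± 0.05, adjusted p = 7.89e-05). In each of these the 3 treated libraries were above the 3 controls.

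The other called members were mt-Atp6 (0.51), mt-Co3 (0.41), mt-Nd3 (0.40), mt-Nd2 (0.36) and mt-Co2 (0.33). For mt-Cytb the libraries overlapped, at 3101, 2504 and 2360 CPM against 2347, 2338 and 2561 (0.14 ± 0.09, adjusted p = 0.337). mt-Co1 (0.27), mt-Nd4 (0.20) and mt-Nd4l (0.20) also missed the threshold, with adjusted p of 0.0527, 0.0638 and 0.418, as did mt-Atp8 (0.69, adjusted p = 0.139). Leaving out each library in turn gave 7 to 10 mitochondrial calls, and all but mt-Nd3 of the 8 were called each time.

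Of the 77 nuclear members tested with Srebf2, 30 fell and 2 rose, where 8.84% of all genes were called lower, and the median was -0.10. Complex I had 15 of those lower, and it held 37 of the 77 tested. Complexes III to V had the others except Sdhd, the small membrane anchor of complex II (-0.35). Ndufa2 stood at 27.7, 30.1 and 27.1 CPM against 49.0, 48.7 and 40.005, a change of -0.70 ± 0.08 (adjusted p = 6.22e-05). Ndufa3 stood at 14.9, 18.3 and 15.5 CPM against 26.5, 26.7 and 24.2 (-0.67 ± 0.09). Ndufa1, an X-linked subunit needed for complex I assembly, stood at 16.6, 17.4 and 19.2 CPM against 27.0, 31.3 and 25.1 (-0.65 ± 0.09). The treated libraries of these 3 accessory subunits were all below the controls.

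Uqcr11, the smallest subunit of complex III, whose promoter with an ETS motif is printed above, stood at 34.0, 33.7 and 28.0 CPM against 49.9, 59.8 and 47.0 (-0.71 ± 0.10, adjusted p = 0.000509). In the ATP synthase, Atp5g3 stood at 209, 210 and 181 CPM against 283, 275 and 248 (-0.42 ± 0.06), and Atp5d, the delta subunit of the rotor, at 175, 177 and 161 against 208, 211 and 211 (-0.30 ± 0.05). No group of these overlapped. The largest fall, singled out after the values were seen, was that of Atp5k, subunit e of the ATP synthase, at 14.6, 14.8 and 9.10 CPM against 25.2, 31.5 and 24.5 (-1.08 ± 0.19, adjusted p = 0.0109). Unique sequence was just under the limit for Uqcr11 (87.9%) and Atp5k (89.1%).

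The other nuclear members called lower were Ndufa12, Ndufv1, Cox6b1, Atp5e, Ndufs6, Ndufb6, Ndufb3, Cox5b, Atp5l, Atp5g1, Ndufa8, Ndufa13, Uqcrfs1, Ndufb2, Uqcrq, Cox8a, Uqcrh, Ndufa5, Ndufc2, Ndufb11, Cox6c and Ndufv3. The 2 that rose were Ndufv2, an iron-sulfur subunit of the NADH module, at 86.2, 95.6 and 90.9 CPM against 77.8, 78.9 and 78.6 (0.21 ± 0.06, adjusted p = 0.0141), and Uqcrc2, a core protein of complex III, at 87.6, 95.8 and 97.0 against 82.2, 82.2 and 79.8 (0.20 ± 0.06, adjusted p = 0.0204). Unique sequence was below the limit for Uqcrc2 (81.5%). Leaving out control library 2 reduced the nuclear calls from 32 to 17, and a fit of all 30 libraries gave 11 nuclear and 0 mitochondrial calls. Uqcrq had the opposite sign on the scale of log2(TPM + 1) (0.15). Of the 32, 17 were called whichever library was left out.

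The members that rose with Prrx1 or Snai1 and those that fell with Srebf2, comparisons without shared libraries, were partly the same. Of the 13 called higher with Prrx1, 10 (76.9%) were among the 30 called lower with Srebf2, which is 33.3% of those 30. They were Cox5b, Ndufa1, Ndufa12, Ndufa13, Ndufa5, Ndufa8, Ndufb2, Ndufb6, Ndufs6 and Uqcr11. With Snai1 it was 8 of 12 (66.7%, and 26.7% of the 30). Of all 77 nuclear members tested, 39% were lower with Srebf2. Over all genes tested in both comparisons, 95 of the 213 higher with Prrx1 (44.6%) and 71 of the 143 higher with Snai1 (49.7%) were among the 1122 lower with Srebf2, which are 8.92% of genes.

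These nuclear members are mostly short, and short genes as a class moved the same way. In all 6 comparisons the median of nuclear members under 500 bases of effective length and that of all tested protein-coding genes under 500 bases had the same sign. The values were 0.23 and 0.13 with Prrx1, 0.23 and 0.18 with Snai1, -0.17 and -0.13 with Srebf2, -0.09 and -0.05 with Egr1, -0.17 and -0.11 with Jun, and -0.23 and -0.22 with doxycycline. Longer nuclear members had medians of 0.03, 0.08, -0.06, -0.06, -0.09 and -0.17 in that order. With Srebf2, 22 of the 44 short members fell and 8 of the 33 longer ones, and 96 of the 401 short protein-coding genes fell. kallisto takes the fragment length off each transcript, and that amount, for transcripts over 2000 bases, was 221, 223 and 226 bases with Srebf2 against 246, 228 and 230 in controls, and 186, 186 and 188 with doxycycline against 161, 174 and 165 without. These 2 comparisons had no overlap in it, and the other comparisons did. The part of fragment length in the nuclear values was not tested.

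**Figure D4:**
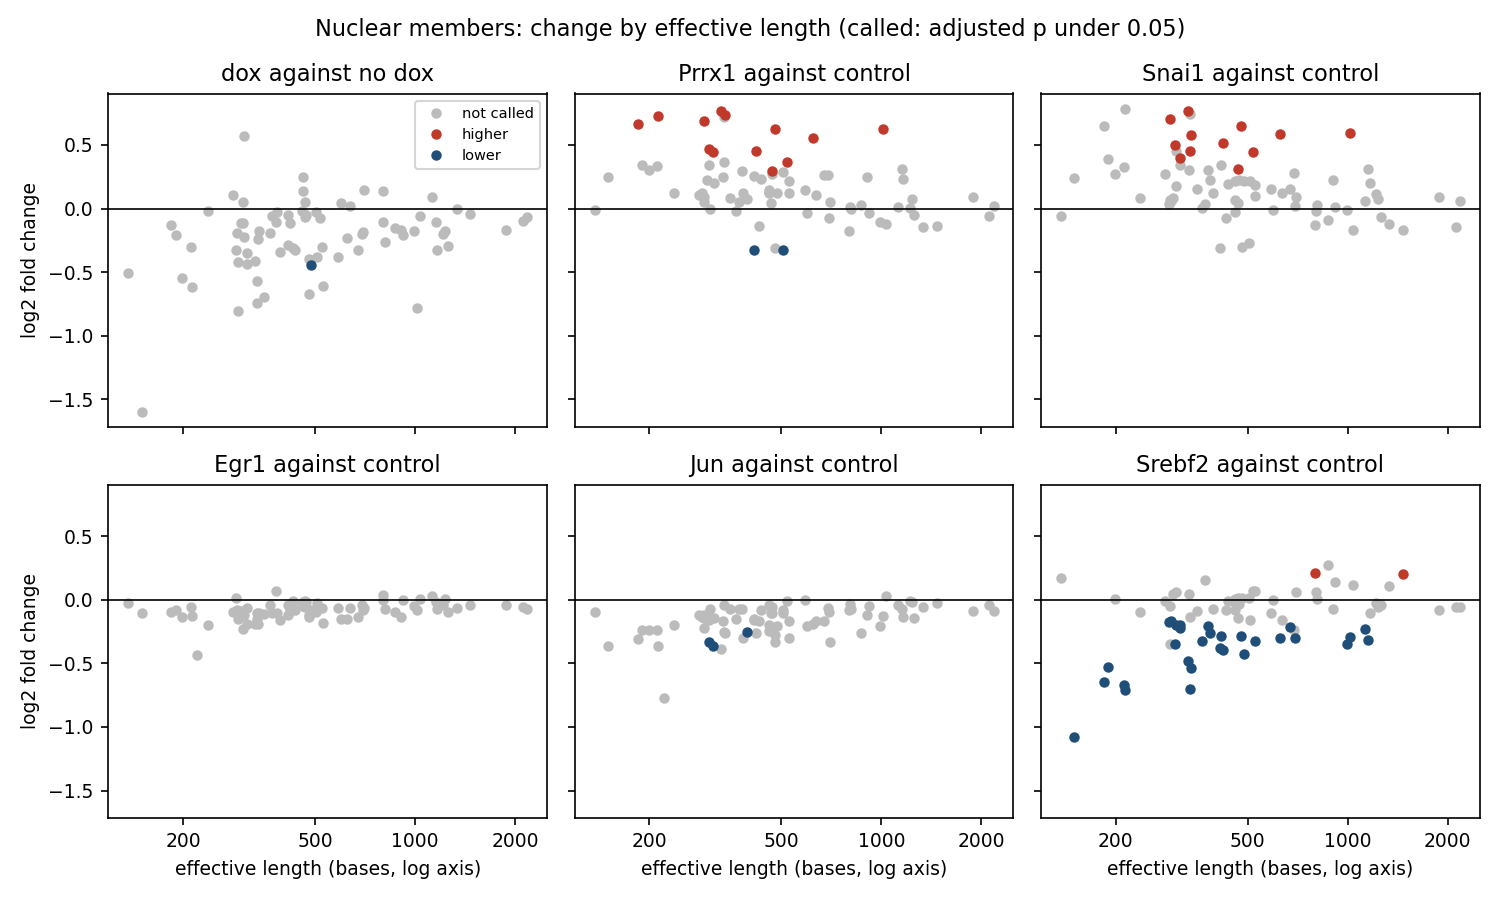
Log2 fold change of each nuclear member against its effective length (bases, log axis) in the 6 comparisons (each point is 1 gene; red and blue were called higher and lower). Called members with Prrx1 and Snai1 lie mostly above 0, those with Srebf2 mostly below, and the farthest from 0 are short, such as Atp5k at -1.08 with Srebf2.

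With Egr1, edgeR called 0 of 13 mitochondrial and 0 of 78 nuclear members, where 0.325% of all genes were called. All 13 mitochondrial members had a positive log2 fold change (median 0.22), and 8 had an unadjusted p under 0.05. Of the nuclear members 72 were negative (median -0.08), and 12 had an unadjusted p under 0.05, all lower. DESeq2 called 3 of each set. For counts by an unadjusted p or by DESeq2, here and below, the share of all genes is not given. Those counts therefore cannot be set against a background. In edgeR, leaving out any 1 of the Egr1 libraries, the one with high epithelial markers included, gave 0 calls in both sets. mt-Nd6 had the lowest adjusted p among the mitochondrial members, at 276, 278 and 314 CPM against 220, 222 and 243 in controls, without overlap (0.34 ± 0.07, adjusted p = 0.108). mt-Nd1 stood at 1857, 1882 and 1882 CPM against 1814, 1635 and 1748 (0.11 ± 0.09, adjusted p = 0.685).

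The other mitochondrial values with Egr1 were 0.13 for mt-Nd2, 0.22 for mt-Co1, 0.63 for mt-Co2, 0.21 for mt-Atp8, 0.14 for mt-Atp6, 0.39 for mt-Co3, 0.07 for mt-Nd3, 0.23 for mt-Nd4, 0.32 for mt-Nd4l, 0.25 for mt-Nd5 and 0.20 for mt-Cytb. For mt-Co2 the copy took 72.9% of the pair with Egr1 and 80.6% in controls, and the summed pair stood at 2317, 2377 and 2429 CPM against 2254, 2095 and 2141.

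With Jun, against the same controls, mt-Nd5 was called higher, the only one of the 13, where 0.967% of all genes were called. It stood at 1231, 1005 and 1232 CPM against 933, 872 and 918 (0.35 ± 0.07, adjusted p = 0.0493). The median of the 13 was 0.28. mt-Nd3 alone was negative (-0.20), and the others were 0.06 for mt-Nd1, 0.12 for mt-Nd2, 0.29 for mt-Co1, 0.47 for mt-Co2, 0.01 for mt-Atp8, 0.03 for mt-Atp6, 0.29 for mt-Co3, 0.28 for mt-Nd4, 0.28 for mt-Nd4l, 0.33 for mt-Nd6 and 0.23 for mt-Cytb. Jun library 2 lay below the other 2 in most of them. Without it 6 mitochondrial members were called, 2 were called without Egr1 library 3, and 0 without any 1 of the others. Without Jun library 2, which is in the same fit, 2 were called with Egr1 too.

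Of the nuclear members 3 fell with Jun, where 0.518% of all genes were called lower, and the median was -0.14. Cox7a2 stood at 66.0, 68.2 and 67.9 CPM against 80.2, 83.3 and 77.3 (-0.25 ± 0.04, adjusted p = 0.0159). Ndufb2 stood at 27.1, 28.4 and 28.8 CPM against 34.3, 38.0 and 33.5 (-0.33 ± 0.06, adjusted p = 0.028), and Ndufa5 at 39.3, 48.3 and 45.1 against 54.4, 56.1 and 60.2 (-0.36 ± 0.07, adjusted p = 0.028). No treated library reached the controls in any of the 3. The number of calls was 0 without Jun library 1, Jun library 3 or control library 2, 1 without Jun library 2, control library 3 or Egr1 library 2, and 6 without Egr1 library 3, and DESeq2 called 22. The contrast of Jun with Egr1 called 0 of 13 and 0 of 78 in edgeR, where 0.449% of all genes were called. DESeq2 called 2 nuclear members, and 14 nuclear and 0 mitochondrial members had an unadjusted p under 0.05.

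On a TPM scale the nuclear direction turned in these 2 comparisons. Targets outside the matched genes (the added GFP and mScarlet and unmatched transcripts) took 11.3% of the TPM of the control libraries against 1.69% with Egr1 and 1.96% with Jun. Over all genes the median difference of log2(TPM + 1) was 0.15 in both, and the nuclear medians were 0.07 and 0.01. Relative to that shift they were still lower.

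Doxycycline moved few members past the test. edgeR called 0 of 13 mitochondrial members, where 6.19% of all genes were called. DESeq2 called 0 as well, and 0 had an unadjusted p under 0.05. mt-Nd1 stood at 2247, 1720 and 1550 CPM with doxycycline against 5746, 966 and 2375 without (-0.72 ± 0.72), and mt-Cytb at 617, 338 and 286 against 1792, 245 and 455 (-1.01 ± 0.91). The libraries without doxycycline spanned the treated ones in both genes, library 1 being the highest and library 2 the lowest of the 6.

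The same held for mt-Nd6 (584, 248 and 199 CPM against 1578, 76.3 and 464; -1.04 ± 1.21). The other values were -0.73 for mt-Nd2, -0.30 for mt-Atp8, -0.08 for mt-Atp6, -0.11 for mt-Co2, 0.37 for mt-Co3, 0.19 for mt-Nd3, -0.42 for mt-Nd4, -0.26 for mt-Nd5 and -0.82 for mt-Nd4l. mt-Co1 varied far less, at 8885, 9216 and 8802 CPM against 9535, 7628 and 7948 (0.10 ± 0.09, adjusted p = 0.61). The median of the 13 was -0.30, while the difference of the log2 ratios was 0.13. That ratio also holds the nuclear share, which had a mean of 0.439% with doxycycline and 0.486% without. The mitochondrial share had means of 1.97% and 2.15%. The ratio difference was -0.14 over the members with mostly unique sequence and -0.18 without library 2 of the untreated group.

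Reads were divided differently between mitochondrial genes and their copies in these libraries. For mt-Co3, the copy held 38.9%, 86.1% and 8.65% of the pair in the 3 libraries without doxycycline and 35.0%, 21.2% and 30.2% with it. The summed pair stood at 3366, 1897 and 2421 CPM against 2993, 2857 and 2571, which overlap as the gene alone does. For mt-Co2 the copy held 84.7% on average without doxycycline and 87.1% with it, but 1.78% in the Srebf2 controls and 3.11% with Srebf2. The copies as a whole held 2.36% to 22.2% of the counts of mitochondrial members and copies together.

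**Figure D5:**
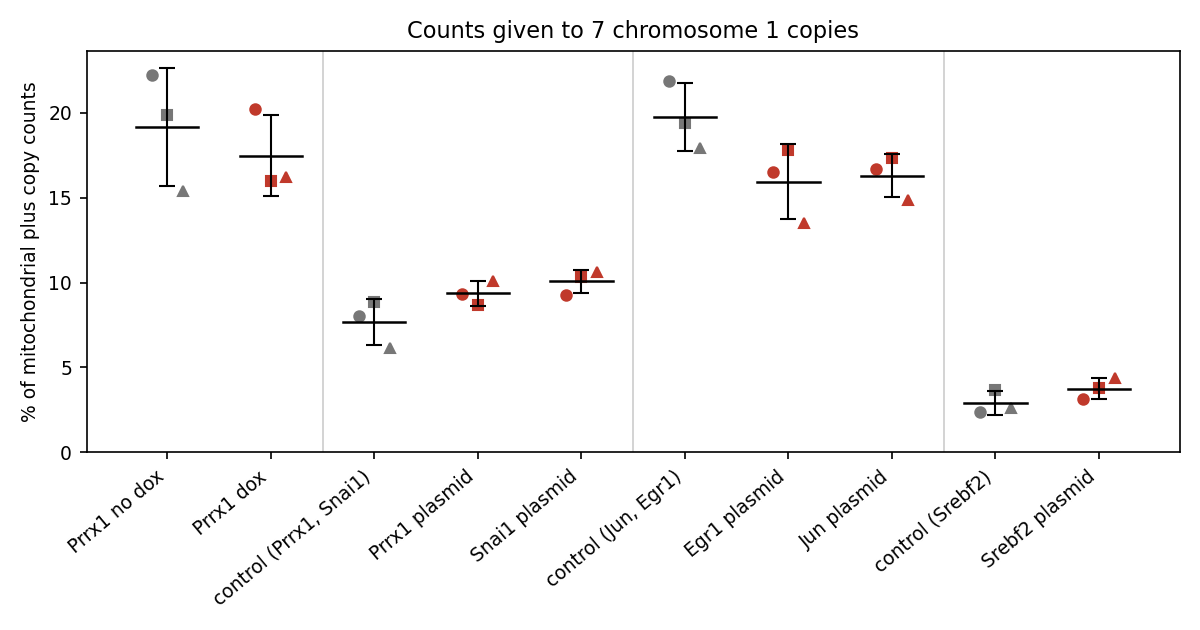
Percent of the counts of all mitochondrial members and the 7 chromosome 1 copies that was assigned to the copies; each point is 1 library, with group means and SD (n = 3). The share lies between 2.36% and 4.36% in the Srebf2 experiment and between 15.4% and 22.2% in the doxycycline experiment.

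Of the nuclear members Atp5g3 fell with doxycycline, at 53.1, 54.1 and 48.3 CPM against 71.9, 75.9 and 63.1 (-0.44 ± 0.10, adjusted p = 0.0279), with no overlap. It was the only one of 78 called, where 2.74% of all genes were called lower. The nuclear share as a whole was 0.438 to 0.442% with doxycycline and 0.451 to 0.540% without. Of the 78, 67 had a negative value (median -0.19), and 16 had an unadjusted p under 0.05, all lower. Without library 2 of the untreated group 11 were called, without library 3 of that group 2, and 0 without any 1 of the other 4.

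The change with Prrx1 was then compared between its 2 routes of delivery, as the doxycycline change minus the transfection change. In this difference 4% of all genes were called, 1.98% higher and 2.01% lower. Route, experiment and the drug itself cannot be told apart in it. mt-Co1 differed by 0.78 (0.10 and -0.69), the only mitochondrial member of 13 called. Nuclear members called were 9, all with a lower value for doxycycline: Atp5k, Ndufs5, Ndufs6, Cox5b, Uqcr10, Ndufa8, Ndufb11, Atp5g3 and Ndufa9. Cox5b, for example, stood at 87.3, 86.9 and 83.4 CPM with doxycycline and 136, 111 and 92.2 without, while it rose in the transfection. The count was 1 to 24 when a library was left out, 24 without control library 1 of the transfection and 17 without library 2 of the untreated cells, and Cox5b was called each time.

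Other genes of mitochondrial respiration were counted by list. Of 48 assembly factors, 4 rose with Prrx1 and 4 with Snai1, none fell (8.33% called in each, against 1.93% and 1.13% of all genes called higher), and the medians were 0.08 and 0.06. Cox11, which inserts copper into complex IV, stood at 17.3 CPM with Prrx1 and 16.5 with Snai1 against 10.5 (0.72 and 0.64), and Uqcc2 and Cox14, factors of complexes III and IV, rose by 0.54 and 0.56 with Prrx1. With Srebf2, 6 fell and 1, Bcs1l, which inserts the Rieske protein into complex III, rose (0.48), in all 14.6% of the list against 17.2% of all genes. Of 37 genes for replication, transcription and RNA handling in mitochondria, 0 were called in the Prrx1, Snai1, Egr1, Jun and doxycycline comparisons, and 3 rose and 2 fell with Srebf2, 13.5% of the list and below the 17.2% of all genes. Among those, Grsf1, of the mitochondrial RNA granules, rose (0.24) and Slirp, which stabilises mitochondrial mRNA, fell (-0.41).

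Of 15 regulators of mitochondrial biogenesis tested, 1 rose and 1 fell with doxycycline (13.3% called, against 6.19% of all genes). With Prrx1 and with Srebf2 1 fell each (6.67%, against 2.98% and 17.2% of all genes), and none were called with Snai1, Egr1 or Jun. Of the PGC-1 coactivators, with doxycycline Ppargc1a fell (25.5 against 39.0 CPM, -0.62) and Ppargc1b rose (10.5 against 5.78 CPM, 0.85), Myc fell with Prrx1 (-0.31), and the nuclear receptor Esrra fell with Srebf2 (24.6 against 38.7 CPM, -0.65). In the import machinery, Timm13, a small chaperone of the intermembrane space, rose with Prrx1 (0.80) and Snai1 (0.81) and fell with Srebf2 (-0.64), where 7 of 23 tested fell (30.4%, against 8.84% of all genes called lower). Of the 78 mitochondrial ribosomal proteins, 2 rose and 1 fell with Prrx1, 4 rose with Snai1, and 5 rose and 13 fell with Srebf2. These are 3.85%, 5.13% and 23.1% of the list, against 2.98%, 1.62% and 17.2% of all genes. Of the cytosolic ribosomal proteins, 9 of 96 rose and 7 fell with Prrx1, 10 rose and 3 fell with Snai1, and 5 of 95 rose and 37 fell with Srebf2. Called were thus 16.7%, 13.5% and 44.2% of those tested, against the same shares of all genes.

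For the next 3 lists, 6.19% of all genes were called with doxycycline, 2.98% with Prrx1, 1.62% with Snai1 and 17.2% with Srebf2. In the citric acid cycle list of 16 genes, Mdh2 (276 against 400 CPM, -0.53) and Cs (-0.30) fell with doxycycline (12.5% called). Pdhb, of pyruvate dehydrogenase, rose with Prrx1 (0.30), and Idh3g rose with Srebf2 (0.16), 6.25% called in each. In the list of 14 genes of cytochrome c and coenzyme Q synthesis, Coq7 rose with Prrx1 (0.43) and Snai1 (0.55). Coq3 of that list fell with doxycycline (-0.75), and 7.14% were called in each of these. Of 12 mitochondrial chaperones and proteases, Hspe1 rose with Prrx1 (0.36) and Snai1 (0.43), 8.33% called in each. With Srebf2, Yme1l1 rose (0.29) and Htra2 fell (-0.21), 16.7% called. In the Egr1 comparison none of these lists had a called gene, and in the Jun comparison only 2 cytosolic ribosomal proteins, Rpl31 and Rpl3, were called, both lower.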

How the data were processed

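The authors made estimated counts and TPM per transcript for each of the 30 libraries with kallisto 0.43.0 on build mm10, per the submitters' processing notes, and deposited them. Annotation, strand and read layout are not given in the sources used here. GENCODE M21, inferred from the identifiers, held 116816 of the 118491 targets. The others were left out. They were 1673 unmatched transcripts, with 0.605 to 0.694% of counts, and GFP and mScarlet, with 0.0062 to 3.94%. GFP and mScarlet took 3.10 to 3.94% in the controls of Egr1 and Jun, against 0.22 to 0.32% with Egr1 and 0.30 to 0.36% with Jun. Counts were summed over 36047 genes and rounded.

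The main test was the quasi-likelihood F test of edgeR (version 4.0.16, R 4.3.3) with robust estimation and TMM scaling. Genes had to pass filterByExpr (minimum count 10, total 15). The test was two-sided, p-values were adjusted by Benjamini-Hochberg over all tested genes, and calls were made under 0.05. Groups sharing controls were fitted together, without a replicate term. CPM are TMM-scaled, except those of summed pairs of a gene and its copy. SE come from the F statistic. Alternatives were DESeq2 1.42.0, limma 3.58.1 on log2(TPM + 1) for genes of mean TPM of at least 1, no filter, other scalings, 1 fit of all libraries, the replicate number as a term, and each library left out. The edgeR steps were also run on simulated data for some comparisons, each as treated against control only, and the outcome is not given. Joint fits of groups sharing controls, and the difference between deliveries, were not simulated. Unique sequence was counted in 31-base words, with 90% as the limit. The members and lists were chosen with earlier results of these data known.

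The rule for names took all 13 mitochondrial members, each nuclear member called in a test (values for the 6 of lowest p in a direction), the highest of each complex, subunits with tissue forms, and up to 3 called genes of lowest p per list. 7 nuclear members had a mean below 1 TPM, and 77 or 78 of the 86 passed the filter of a fit.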

Additional observations from a re-analysis of the deposited data

Results flagged for a closer look

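The change of 10 members differed between delivery of Prrx1 by doxycycline and by transfection, by the test of the difference itself (edgeR, adjusted p under 0.05). The drug itself cannot be told apart from Prrx1 in it. Each difference is the doxycycline log2 fold change minus the transfection one. It was -1.89 for Atp5k (-1.60 and 0.25), -1.55 for Ndufs5 (-0.81 and 0.69), -1.19 for Ndufs6 (-0.41 and 0.77), -1.03 for Cox5b (-0.40 and 0.63), -0.87 for Uqcr10 (-0.55 and 0.30) and -0.79 for Ndufa8 (-0.23 and 0.55). Ndufb11 differed by -0.59 (-0.32 and 0.26), Atp5g3 by -0.57 (-0.44 and 0.13) and Ndufa9 by -0.57 (-0.33 and 0.23). mt-Co1 differed the other way, by 0.78 (0.10 and -0.69). In the doxycycline experiment Atp5k stood at only 0.87, 2.33 and 1.13 CPM against 5.71, 2.69 and 4.70, and Ndufs5 at 2.47, 2.62 and 2.34 against 6.63, 2.11 and 4.07, which overlap for Ndufs5. The fragment length taken off was longer with doxycycline than without, and its part in these differences was not tested.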

How the results depend on the processing

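These counts cover all mitochondrial members in each comparison, called or not, and the called nuclear members. Mitochondrial members that stayed uncalled are thus counted as kept. Across alternatives other than leaving out a library, 1357 values kept their direction and side of the threshold, and 117 lost and 36 gained the threshold. The 2 that turned were Ndufab1 with Prrx1 (0.031) and Uqcrq with Srebf2 (0.147), both with limma on log2(TPM + 1). With 1 library left out, 1225 stayed, 349 lost and 16 gained it. The cause of these changes was not tested.

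The counts of calls from here on come without the share of all genes called in the same setting. They cannot be set against a background. DESeq2 called 3 nuclear members with doxycycline, 20 with Snai1, 3 with Egr1 and 22 with Jun, 14 in the difference between Prrx1 deliveries and 2 between Jun and Egr1. Of the mitochondrial members it called 3 with Egr1 and 4 with Jun. limma on log2(TPM + 1) called 0 nuclear members with doxycycline, 20 with Snai1, 5 with Egr1, 1 with Jun, 20 with Srebf2 and 2 in the difference, and 7 mitochondrial members each with Egr1 and Jun. Without the filter the nuclear calls with doxycycline were 9, and the mitochondrial calls 6 with Prrx1, 6 with Snai1 and 0 in the difference. A fit of all 30 libraries gave 23 nuclear calls with doxycycline, 0 with Jun, 11 with Srebf2 and 31 in the difference, and 2, 2, 0, 0 and 2 mitochondrial calls with Prrx1, Snai1, Jun, Srebf2 and in the difference.

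The replicate block gave 2 nuclear calls with doxycycline, 1 mitochondrial call with Egr1, 2 with Jun and 0 in the difference. Same-numbered libraries shared only a number: the correlations of their deviations ran from -0.188 to 0.0969 (24 pairs). The ratio difference with doxycycline was -0.14 with members of at least 90% unique sequence.

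With 1 library left out in turn, mitochondrial calls ran from 6 to 12 with Prrx1, 6 to 13 with Snai1, 0 to 2 with Egr1, 0 to 6 with Jun, 7 to 10 with Srebf2 and 0 to 2 in the difference, and nuclear calls from 0 to 11 with doxycycline, 2 to 53 with Prrx1, 0 to 55 with Snai1, 0 to 6 with Jun, 17 to 31 with Srebf2 and 1 to 24 in the difference. The ratio difference ran from -0.18 to 0.43 with doxycycline, -1.10 to -0.85 with Prrx1, -1.05 to -0.86 with Snai1, 0.25 to 0.36 with Egr1, 0.27 to 0.48 with Jun and 0.37 to 0.49 with Srebf2.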
